A study of Homo sapiens with 15 samples.

Results

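The nuclear factor I (NFI) genes NFIA, NFIB, NFIC and NFIX and the gene AUTS2 were followed in BEAS-2B, an established human cell line derived from bronchial epithelium, during exposure to polyethylene terephthalate nanoplastics (PET-NPLs). These 5 genes were taken by name from the 28395 genes of the count table, and all 5 were among the 16740 genes abundant enough to be tested. NFIA and AUTS2 were chosen by measured values, their log2 fold changes at 30 weeks being among the largest increases in exposed over control cells, and the other NFI genes entered as the relatives of NFIA. The 30-week values below, and every change that uses them, are therefore descriptions of the members without a test. The mean NFIA of unexposed controls fell from 28.05 CPM at 24 h to 7.96 CPM at 15 weeks and 0.926 CPM at 30 weeks. In exposed cells the mean was 25.6 CPM at 24 h, 11.9 CPM at 15 weeks and 13.7 CPM at 30 weeks. Every exposed sample stayed above 10 CPM. The 30-week samples were a separate batch. AUTS2 rose in 30-week exposed cells and was low in all other groups.

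NFI proteins are transcription factors that bind DNA as dimers at palindromes of the letters TTGGC, and they can open chromatin and activate or repress genes. NFIA and NFIB drive the switch from neurons to glia in the embryo, NFIB is needed for lung maturation, NFIC for tooth root formation, and NFIX for the fetal switch of skeletal muscle. AUTS2 is best known from neurodevelopmental disorders: its protein joins variant Polycomb complexes with PCGF3 or PCGF5, recruits casein kinase 2 and the acetyltransferase EP300 to activate genes in neurons, and in the cytoplasm acts on the small GTPase RAC1.

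The study asked how the transcriptome of these cells moves through a long exposure to particles made from water bottles. Exposed cells received 50 µg/mL of PET-NPLs for 24 h, 15 weeks or 30 weeks, and the controls were untreated cells of the same passage, both grown in DMEM with fetal bovine serum. Total RNA depleted of ribosomal RNA was sequenced from 2 control and 2 exposed samples at 24 h, 2 and 2 at 15 weeks, and 3 and 4 at 30 weeks, with 23143202 to 31459990 counts per sample. The labels place the samples of 24 h and 15 weeks in batch 1 and those of 30 weeks in batch 2, so 30 weeks and its batch cannot be told apart. Neither the labels nor the methods say that samples of a group came from separate cultures, so p-values measure only the spread between these samples, which may be technical, and an effect of the particles and a drift of separately kept cultures cannot be told apart. In bulk RNA, fewer cells that express a gene and less RNA per cell also cannot be told apart.

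The label of bronchial epithelium was checked on 12 markers. The keratins KRT8 and KRT18 were abundant (149.9 to 616.3 CPM and 194.5 to 352.5 CPM as group means), while EPCAM and CDH1, the surface markers of epithelium, had at most 24 and 27 counts in any sample, and TP63, NKX2-1 and FOXJ1 had 3 counts or fewer in every sample. The 30-week controls stood apart from all other libraries: their 8 skeletal muscle markers summed to 259 to 349 CPM against 16.2 to 41.9 CPM in every other sample, most of it from TNNT1 at 186 to 235 CPM and MYOD1 at 65.8 to 105.8 CPM. MYOG and DES were also higher there, at 2.13 to 3.19 and 1.55 to 1.90 CPM, while ACTA1 and MYH3 were not (means of 0.084 and 3.16 CPM) and MYF5 and CKM had 3 counts or fewer in every sample. Their epithelial markers summed to 313 to 409 CPM against 876 to 1100 CPM in 30-week exposed cells. Every 30-week difference below is read against these controls, and the part of the muscle and keratin shift in it was not tested.

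NFIA lies on chromosome 1 and AUTS2 on chromosome 7, where it is spread over 1195 kb. The sequences shown are the 250 bases before a start site (RefSeq, GRCh38.p14, plus strand), given for the pair of genes with the largest 30-week differences, and capitals mark the letters TTGGC of the NFI motif, which were searched on both strands. The first is the window before the most upstream NFIA start, at chr1:61076977-61077226, the only NFIA window with these letters. The next are the windows before the start of the reference (MANE Select) transcript of NFIA, at chr1:61082311-61082560, and of AUTS2, at chr7:69598225-69598474.
NFIA, upstream start: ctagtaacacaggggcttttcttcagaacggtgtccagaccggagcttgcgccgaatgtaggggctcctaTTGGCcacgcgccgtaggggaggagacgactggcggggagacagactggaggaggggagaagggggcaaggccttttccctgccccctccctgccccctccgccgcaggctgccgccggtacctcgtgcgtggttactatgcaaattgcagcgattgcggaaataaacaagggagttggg
NFIA, reference start: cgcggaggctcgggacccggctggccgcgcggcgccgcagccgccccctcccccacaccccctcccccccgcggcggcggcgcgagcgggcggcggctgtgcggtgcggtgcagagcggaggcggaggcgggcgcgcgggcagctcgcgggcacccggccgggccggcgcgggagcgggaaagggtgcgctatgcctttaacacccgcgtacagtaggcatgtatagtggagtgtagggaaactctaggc
AUTS2, reference start: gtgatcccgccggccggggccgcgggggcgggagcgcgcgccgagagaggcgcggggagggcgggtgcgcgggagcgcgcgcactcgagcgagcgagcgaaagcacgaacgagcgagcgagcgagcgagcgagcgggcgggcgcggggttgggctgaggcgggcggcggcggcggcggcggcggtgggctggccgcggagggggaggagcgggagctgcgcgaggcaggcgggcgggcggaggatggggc
In windows of 300 bases, from 250 before to 50 after a start, 9 of the 20 RefSeq windows of the 5 genes held TTGGC on either strand, beside 45.6% of all 34943 windows in the table. The reference starts of NFIA, NFIB, NFIX and AUTS2 and the window of NFIC held none. The full palindrome, TTGGC and its reverse complement 5 bases apart, which contains TTGGC on both strands, was in none of the 20 windows and in 0.0286% of all windows. These matches describe letters and not binding.

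NFIA (Entrez gene 4774, chr1:61077227-61462788) had 33.6 and 22.5 CPM (counts scaled to library size, with TMM factors) in the controls at 24 h, 8.31 and 7.61 CPM at 15 weeks, and 0.731, 0.686 and 1.36 CPM at 30 weeks. The control groups did not overlap, and the mean fell by a factor of 3.52 from 24 h to 15 weeks and of 8.6 from 15 to 30 weeks. Exposed cells had 26.8 and 24.4 CPM at 24 h, 10.5 and 13.2 CPM at 15 weeks, and 16.3, 10.3, 13.4 and 14.7 CPM at 30 weeks. Here the fall ended at 15 weeks, with a mean of 11.9 ± 1.97 CPM (SD, n = 2) then and 13.7 ± 2.52 CPM (SD, n = 4) at 30 weeks, and the ranges of these groups overlapped. The raw counts behind the lowest group were 17, 19 and 38 against 295 to 450 in 30-week exposed cells.

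AUTS2 (Entrez gene 26053, chr7:69598475-70793506) showed another pattern. The controls had 0.727 and 0.420 CPM at 24 h, 1.14 and 1.06 CPM at 15 weeks, and 0.602, 0.361 and 0.465 CPM at 30 weeks. Exposed cells had 0.680 and 0.648 CPM at 24 h, 1.43 and 1.40 CPM at 15 weeks, and 7.53, 4.49, 7.96 and 8.94 CPM at 30 weeks. All 4 exposed samples at 30 weeks lay above every other sample, and the mean of exposed cells was 5.12 times that at 15 weeks, while the controls fell 2.31-fold over the same interval. In counts, the 30-week exposed samples had 128 to 254 and the remaining 11 samples had 10 to 46, so that differences among the low groups rest on few reads.

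NFIB (Entrez gene 4781, chr9:14081843-14532077, minus strand), the relative of NFIA that is best known from the lung, was the most abundant member. Its controls had 206 and 152 CPM at 24 h, 109.8 and 110.6 CPM at 15 weeks, and 85.8, 106.4 and 93.9 CPM at 30 weeks. Its exposed samples had 176 and 145 CPM at 24 h, 130.0 and 140.9 CPM at 15 weeks, and 139, 115, 125 and 135 CPM at 30 weeks. The exposed samples thus lay above the controls at 15 and at 30 weeks and overlapped with them at 24 h. The range of NFIB over all samples was narrow next to that of NFIA, and no sample was below 85.8 CPM.

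NFIC (Entrez gene 4782, chr19:3359630-3469217) and NFIX (Entrez gene 4784, chr19:12995475-13098796) lie on chromosome 19. NFIC had 9.10 to 21.0 CPM in the 8 samples of 24 h and 15 weeks, 63.8, 34.0 and 73.2 CPM in the 30-week controls, and 65.2, 22.7, 43.0 and 61.6 CPM in 30-week exposed cells. Every 30-week sample was above every earlier sample in both arms, across the change of batch, and the arms overlapped at each time. The share of all genes placed so between times was not counted. NFIX had 8.85 to 16.8 CPM at 24 h, 9.10 and 8.20 CPM in the 15-week controls, 7.41 and 7.66 CPM in 15-week exposed cells, 20.6, 8.99 and 20.4 CPM in the 30-week controls, and 19.7, 8.87, 15.0 and 18.5 CPM in 30-week exposed cells. At 30 weeks replicate 2 was the lowest of its group for both genes in both arms, and exposed replicate 2 was the lowest exposed sample for all 5 genes. NFIC deviated there from its group mean by -0.671 (control) and -0.967 (exposed) on the log2 scale. Genes with a GC content near its 59.0% had median deviations of -0.156 and -0.197 in these libraries. Genes near the 40.2% GC of NFIA had 0.138 and 0.287. A part of GC content in the spread was not tested.

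The sum of the NFI genes was compared per kb of the reference transcript, since the genes differ in length. NFIB made up 74.9% ± 3.25 (SD, n = 2) of this sum in the 24 h controls and 76.8% ± 2.19 (SD, n = 2) at 15 weeks, and 53.7% ± 12.5 (SD, n = 3) in the controls and 60.9% ± 7.31 (SD, n = 4) in exposed cells at 30 weeks. The share of NFIA in the controls was 10.8% ± 0.283 (SD, n = 2) at 24 h, 5.15% ± 0.488 (SD, n = 2) at 15 weeks and 0.467% ± 0.137 (SD, n = 3) at 30 weeks. In exposed cells it was 10.9% ± 0.283 (SD, n = 2), 6.38% ± 0.693 (SD, n = 2) and 5.92% ± 0.183 (SD, n = 4), a value that lay between 5.66% and 6.08% in all 4 samples of 30 weeks. NFIC followed NFIB at 30 weeks in both arms, with 33.0% ± 8.49 (SD, n = 3) in the controls and 23.1% ± 5.89 (SD, n = 4) in exposed cells, then NFIX with 12.8% ± 4.08 (SD, n = 3) and 10.1% ± 1.52 (SD, n = 4), and NFIA was last in both. The sum itself was 28.0 ± 7.11 CPM per kb in the 24 h controls (SD, n = 2), 16.7 ± 0.552 CPM per kb in the 15-week controls (SD, n = 2), and 21.1 ± 2.72 CPM per kb (SD, n = 3) against 25.1 ± 4.77 CPM per kb (SD, n = 4) at 30 weeks, where the arms overlapped. On the same scale AUTS2 was at 0.968 ± 0.257 CPM per kb (SD, n = 4) in 30-week exposed cells, below the 1.48 ± 0.273 CPM per kb (SD, n = 4) of NFIA there.

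No member passed the test for exposure at 24 h, with fitted log2 fold changes from -0.19 (NFIC) to 0.21 (AUTS2) and all adjusted p = 1 by edgeR's quasi-likelihood test. The share of all genes called there was 0%, and 1.65% of genes but 0 members had an unadjusted p under 0.05. DESeq2 and limma-voom also called 0 members. At 15 weeks the log2 fold change of exposed over control cells was 0.57 for NFIA (SE 0.257), 0.30 for NFIB (SE 0.168), 0.36 for AUTS2 (SE 0.344), 0.11 for NFIC and -0.20 for NFIX. Again 0 members passed with edgeR, DESeq2 or limma-voom and 0% of all genes did with edgeR. An unadjusted p under 0.05 was reached by 4.92% of all genes and by 1 member, NFIA, whose adjusted p was 0.99 in edgeR's model. The exposed samples of NFIA, NFIB and AUTS2 all lay above the controls, as those of 23.4% of all genes did with 2 samples a group, and those of NFIX lay below them, as 22% of all genes did. The test of the difference between the effects at 15 weeks and 24 h called 0 members and 0% of genes with edgeR and 0 members with DESeq2 and limma-voom, and 3.85% of genes and 0 members had an unadjusted p under 0.05. Its log2 difference was 0.70 for NFIA (SE 0.358).

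Time in culture was compared within batch 1, separately in each arm. Between the 24 h and the 15-week controls, 24.9% of all genes passed the test, 12.2% lower and 12.7% higher, and so did 2 of the 5 members, both lower. NFIA fell by 1.82 on the log2 scale (SE 0.260, adjusted p = 8.98e-05, edgeR) and NFIB fell by 0.70 (SE 0.169, adjusted p = 0.00615, edgeR). The values for AUTS2, NFIX and NFIC were 0.93 (SE 0.387, edgeR adjusted p = 0.0935), -0.57 and -0.31. NFIB lost its call without control replicate 1 of 24 h (log2 fold change -0.47, edgeR adjusted p = 0.118) or without control replicate 1 of 15 weeks (edgeR adjusted p = 0.0504), and NFIA kept its call without any single library. Leaving out 1 of 2 samples leaves a lone sample that is assumed to vary like the other groups, here and for exposed cells below.

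Between the 24 h and the 15-week exposed cells, which are other samples, 26% of all genes passed, 13.5% higher and 12.5% lower. NFIA fell by 1.11 on the log2 scale (SE 0.254, edgeR adjusted p = 0.00412) and AUTS2 rose by 1.08 (SE 0.380, edgeR adjusted p = 0.0464). The values of NFIX, NFIB and NFIC were -0.84, -0.24 and -0.01, and none passed. The call of AUTS2 rests on 16 and 17 counts against 46 and 43, and it was lost with limma-voom (adjusted p = 0.15) and without any single one of the 4 libraries (edgeR adjusted p from 0.127 to 0.19). The call of NFIA was lost without exposed replicate 1 of 15 weeks (edgeR adjusted p = 0.0619).

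At 30 weeks the fitted log2 fold change of exposed over control cells was 3.93 for AUTS2 (SE 0.295), 3.87 for NFIA (SE 0.256), 0.43 for NFIB (SE 0.130), -0.10 for NFIX (SE 0.291) and -0.24 for NFIC (SE 0.327). The groups did not overlap for AUTS2, NFIA and NFIB, which all had higher exposed samples, and 14.3% of all genes were so placed. NFIA and AUTS2 were chosen for this difference, and a value of at least 3 was reached by 92 of the 16740 genes, or 0.55%. The ratios of the means were alike, 14.8 for NFIA and 15.2 for AUTS2, but the sides that moved were not. From 15 to 30 weeks, across the change of batch, NFIA had log2 changes of -3.09 (SE 0.278) in the controls and 0.21 (SE 0.222) in exposed cells, and AUTS2 had -1.21 (SE 0.361) and 2.35 (SE 0.294). NFIC had 2.15 (SE 0.430) and 1.80 (SE 0.411), with no overlap of the times in either arm. NFIX had 0.94 (SE 0.362) and 1.04 (SE 0.351), and its times overlapped in the controls. The share of all genes without overlap between times was not counted, here or for the members above. The median size of the log2 change over all genes from 15 to 30 weeks was 0.62 in the controls and 0.55 in exposed cells. The 30-week exposed samples of NFIA lay below the 24 h exposed samples and overlapped with those of 15 weeks, so that the 30-week controls are the group that sets the fold of NFIA.

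**Figure D1:**
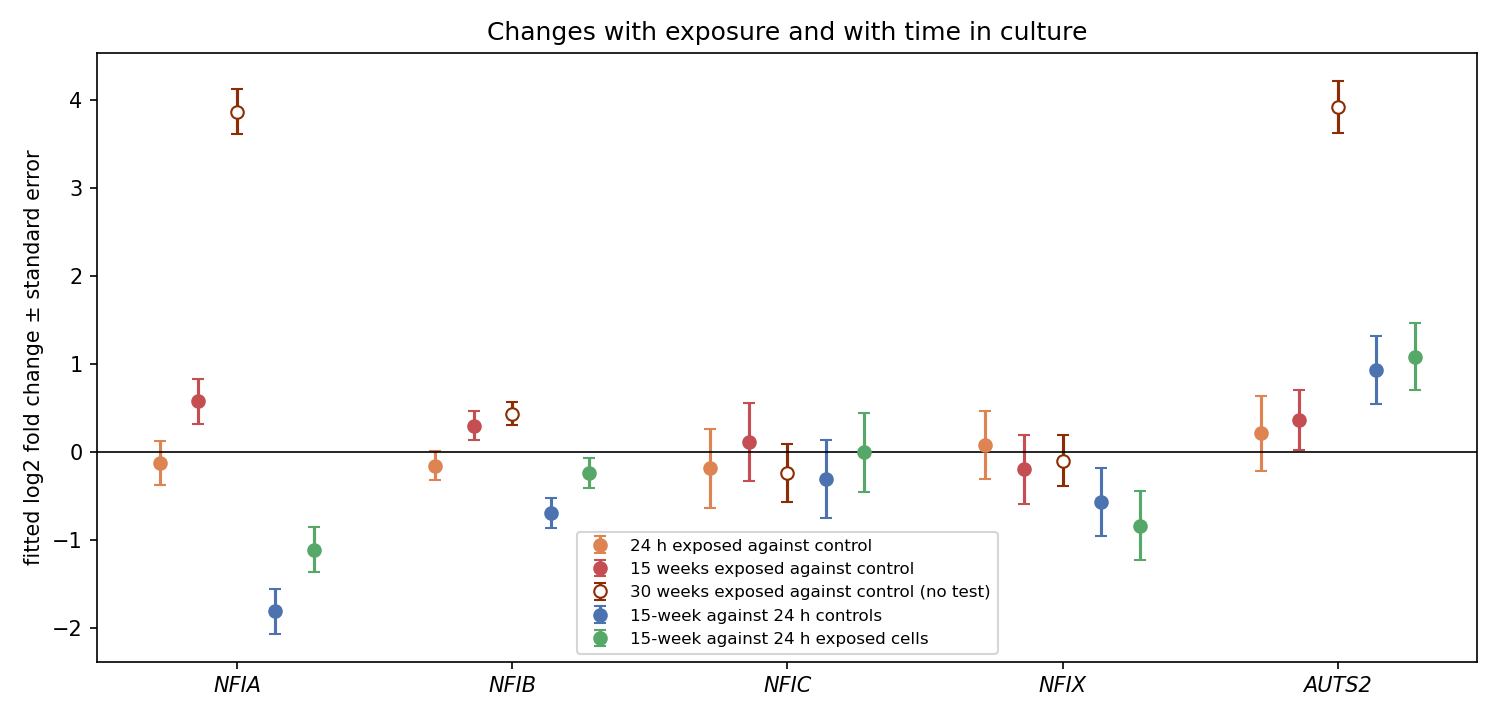
Fitted log2 fold changes (vertical axis, bars of 1 standard error) of the 5 genes for exposure at 24 h, 15 weeks and 30 weeks and for 15 weeks against 24 h in each arm. The 30-week points (open, no test) of NFIA and AUTS2 lie at 3.87 and 3.93, and the 15-week points of the controls against 24 h lie at -1.82 for NFIA and 0.93 for AUTS2.

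Genes tied to these factors in other systems were read from 3 lists with 33 genes, of which 29 were tested. The NFI list held 16 genes tied to NFI factors, from glial, muscle and Notch programs and from outside them, such as FOXA1 and CDKN1A. Its FABP7, MMD2, CKM and MYH7 were too low to test. Between the 24 h and the 15-week controls 8 of its 12 tested genes passed, 5 higher and 3 lower, with a median log2 fold change of 0.21 beside -0.02 over all genes and a share of 24.9% called. SOX9, a transcription factor that acts together with NFIA in glia, had 13.6 to 16.3 CPM at 24 h and 2.53 to 2.92 CPM at 15 weeks and fell by 2.45 (SE 0.227, edgeR adjusted p = 1.04e-06). HES1, a repressor downstream of Notch, fell by 2.28 (SE 0.290, edgeR adjusted p = 2.82e-05). FOXA1, a forkhead factor of lung and prostate epithelium, had 185 and 187 counts at 24 h and 2 counts in each control of 15 weeks. It was 70.7-fold lower with the 15-week controls set to 3 counts.

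The 5 that rose were SLC1A3, a glutamate transporter of astrocytes (1.74, SE 0.204, edgeR adjusted p = 1.26e-05), NFATC4 (1.19), a calcineurin-regulated factor, the receptor NOTCH1 (1.09), and APCDD1 and GFAP. APCDD1, an inhibitor of Wnt signaling that NFIA and SOX9 are known to induce, was 12.5-fold higher with the 24 h controls set to 3 counts. GFAP, the filament of astrocytes, was 6.22-fold higher on the same floor, with only 15 and 28 counts at 15 weeks. In exposed cells 5 of the 12 passed between 24 h and 15 weeks, beside 26% of all genes. Of these, SOX9 (-2.56), HES1 (-2.48) and FOXA1 fell, SLC1A3 rose (1.503), and APCDD1 rose 16.2-fold from that floor. The Polycomb list of AUTS2 held 12 genes, EP300 and the casein kinase 2 subunits among them. Between exposed cells of 24 h and 15 weeks it gave 1 call, the ubiquitin ligase RNF2 (0.63, SE 0.207, edgeR adjusted p = 0.0351). The 5 genes of the Rac branch of AUTS2 gave 0 with edgeR, DESeq2 and limma-voom (0 with an unadjusted p under 0.05 in edgeR). Between the controls both lists gave 0 calls with the same 3 tools, with 1 gene of each list at an unadjusted p under 0.05 in edgeR.

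Exposure changed 0 of the 29 genes at 24 h and 0 at 15 weeks in edgeR's test, beside 2 and 1 with an unadjusted p under 0.05 and 0 by DESeq2 or limma-voom. At 30 weeks 9 of 29 passed, 3 higher and 6 lower, beside 23.7% of all genes. In the NFI list, SOX9 had 25.2 to 27.5 CPM in the controls and 5.11 to 7.86 CPM in exposed cells (log2 fold change -2.07, SE 0.160, edgeR adjusted p = 1.31e-07). Exposed cells were also lower than the controls in SLC1A3 by 0.63 and in the cell cycle inhibitor CDKN1A by 0.38. From 15 to 30 weeks, across the change of batch, mean SOX9 rose from 2.72 to 26.5 CPM in controls and 2.10 to 6.29 CPM in exposed cells. In the same order, CDKN1A rose from 29.1 to 119.1 CPM and from 28.0 to 91.8 CPM. SLC1A3 fell from 22.85 to 10.5 CPM and from 26.3 to 6.77 CPM. NFATC4 was higher in exposed cells by 2.31 (SE 0.306, edgeR adjusted p = 4.38e-05), with 3.12 to 5.07 CPM against 0.394 to 1.29 CPM in the controls. HES1 was higher by 0.98 (SE 0.259, edgeR adjusted p = 0.0121). The median of the NFI list was 0.03 beside 0.0078 over all genes.

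Of the 12 genes of the Polycomb list, 2 were lower in exposed cells than in controls at 30 weeks, beside 11.7% of all genes. The list median was -0.07. These were PCGF3 (-0.32, SE 0.101, edgeR adjusted p = 0.0308) and CSNK2B (-0.39, SE 0.114, edgeR adjusted p = 0.0228), a subunit of casein kinase 2, and 10 did not pass. From 15 to 30 weeks mean CSNK2B rose from 61.99 to 119.2 CPM in controls and 59.8 to 91.2 CPM in exposed cells. Mean PCGF3 rose from 60.8 to 69.9 CPM in controls and was 55.5 and 56.1 CPM in exposed cells. Of the 5 genes of the Rac branch, RAC1 was higher in exposed cells (0.34, SE 0.116, edgeR adjusted p = 0.0449), as 12% of all genes were. PREX1, an exchange factor for RAC1, was lower (-0.41, SE 0.138, edgeR adjusted p = 0.0404), and the list median was 0.19. These differences were small next to that of AUTS2, but AUTS2 was chosen for its large 30-week difference, so the contrast was set by the choice. The count of 9 became 4 without control replicate 1, 5 without exposed replicate 1 or without exposed replicate 4, and 14 without exposed replicate 2.

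**Figure D2:**
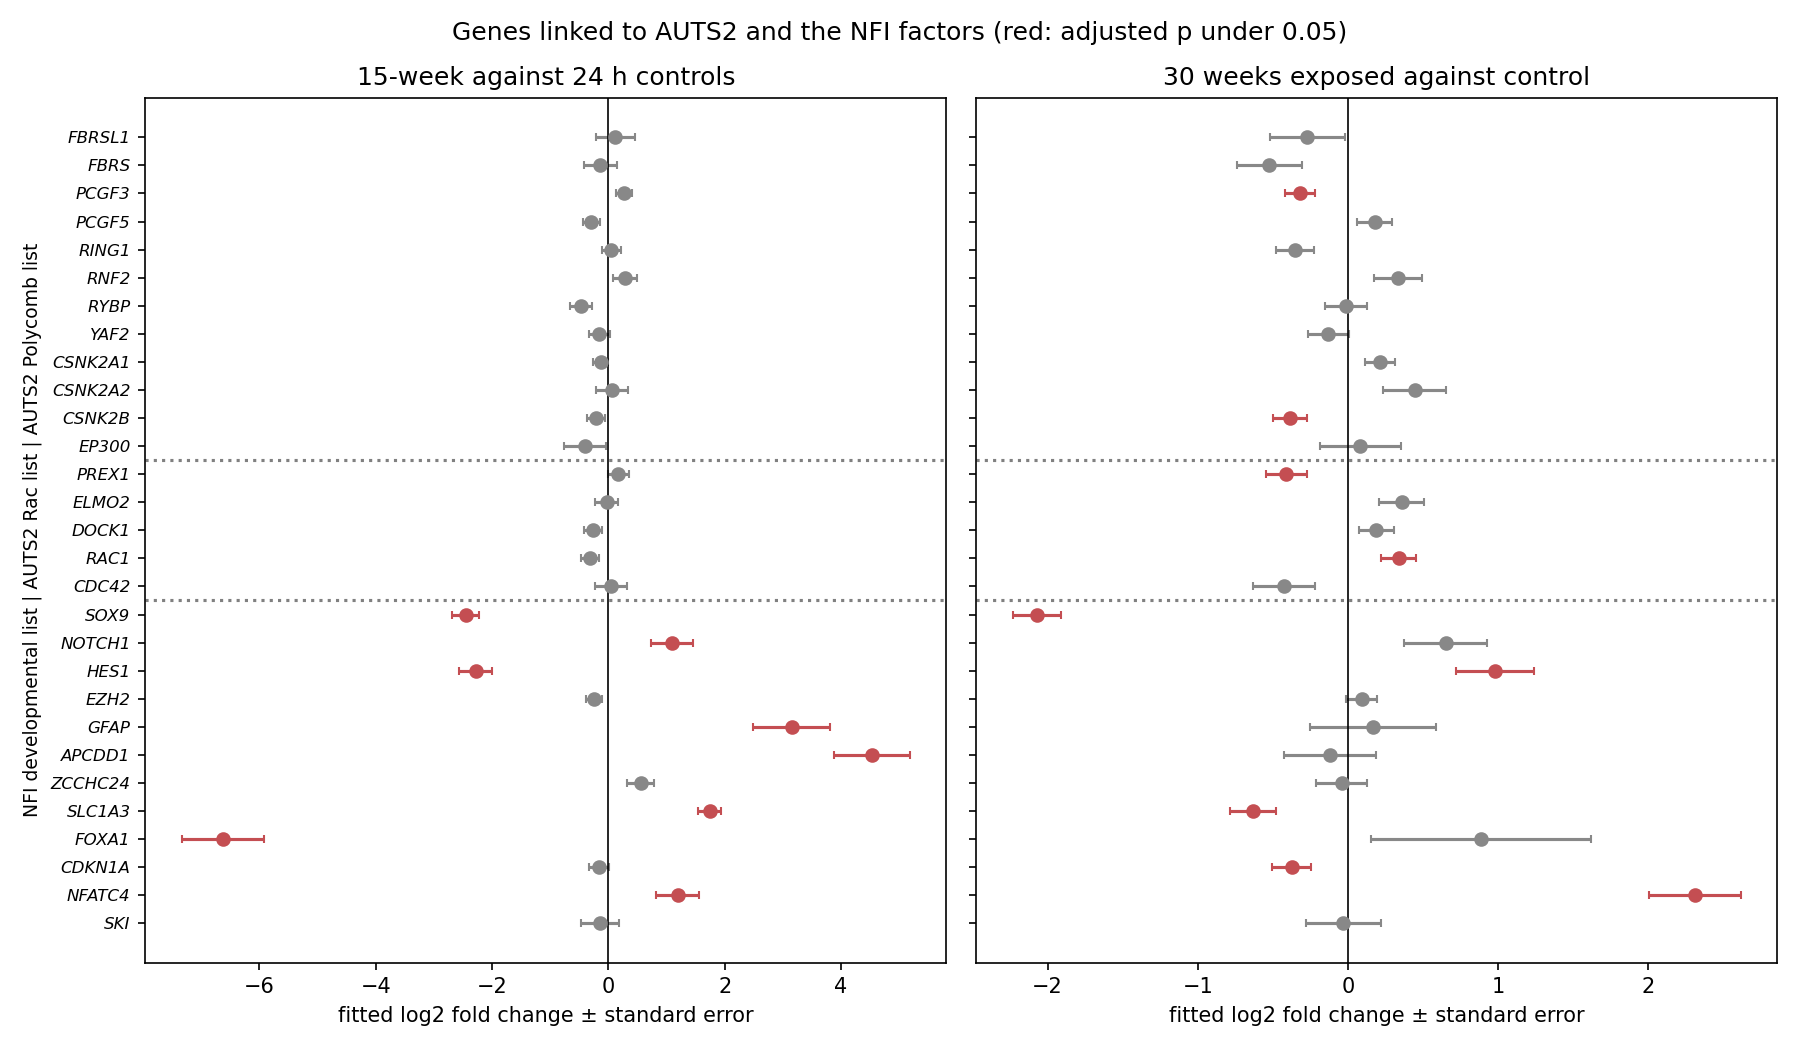
Fitted log2 fold changes (horizontal axes with separate ranges, bars of 1 standard error) of the 29 tested genes of the Polycomb, Rac and NFI lists, from top to bottom, for 15-week against 24 h controls and for exposed against control cells at 30 weeks. Red points passed at an adjusted p under 0.05 and number 8 on the left, all from the NFI list, and 9 on the right, where SOX9 (-2.07) and NFATC4 (2.31) are the largest.

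The genome around the members was read from the 5 nearest tested coding genes on each side. At 30 weeks 12 of these 50 neighbours passed, 6 higher and 6 lower, beside 23.7% of all genes. Next to NFIA, 6 of 10 passed: KANK4 (2.20, SE 0.335, edgeR adjusted p = 0.000176) and PATJ (0.50) were higher, and FGGY (-1.25, SE 0.138, edgeR adjusted p = 6.68e-06), TM2D1 (-0.75), OMA1 (-0.55) and JUN (-0.48) were lower. TM2D1 and PATJ, the nearest of these, lie 218.3 and 279.7 kb away on the same side, and they moved in opposite directions. Next to NFIB, ZDHHC21 (0.44) and MPDZ (0.37) were higher and FREM1 (-1.59) lower, next to NFIC, TLE2 (1.37) was higher and NCLN (-0.43) lower, and next to AUTS2 only KCTD7 (0.62), 2955 kb away, passed.

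NFIA-AS1, a long noncoding RNA that overlaps NFIA on the opposite strand, had 19 and 26 counts in the 24 h controls, 8 and 15 at 15 weeks and 0 in each of the 3 controls of 30 weeks, with 18 and 29, 7 and 14, and 3 to 5 counts in exposed cells. Its counts were low everywhere and in the controls followed the same order as NFIA. The library kit keeps the strand, but the strand setting used in counting is not given in the sources used here, so reads of NFIA and NFIA-AS1 cannot be told apart.

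For each member, the 3 genes with the most similar profile over the 15 samples were sought among genes of at least 1 CPM on average, by the root mean square (RMS) difference of centred log2 CPM. The nearest to NFIA were DSG2, a cadherin of desmosomes (RMS 0.349), PRKCZ, an atypical protein kinase C of cell polarity (0.502), and the homeobox factor ISL1 (0.541). DSG2 had a mean of 69.0 CPM in the 24 h controls, 22.97 CPM at 15 weeks and 2.57 CPM at 30 weeks, and 43.96 CPM in 30-week exposed cells. The nearest to AUTS2 was the homeobox gene HOXC9 (0.571), which at 30 weeks averaged 0.785 ± 0.177 CPM in 3 controls and 6.64 ± 0.851 CPM in 4 exposed samples (SD), followed by ZFP92 (0.585) and AMOT (0.587), a scaffold of the Hippo pathway.

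NFIC was nearest to EHD2 (0.164), POLR2A, the largest subunit of RNA polymerase II (0.179), and SRRM2, a protein of the splicing machinery (0.216). POLR2A likewise had a mean of 70.9 CPM in the 15-week controls and 269 ± 90.1 CPM (SD, n = 3) in the 30-week controls. The genes near NFIX included BCL9L (0.174) and NDST1 (0.186), and NFIB was nearest to ELK3 (0.11), USP31 (0.112) and BMPR2 (0.115), a receptor for bone morphogenetic proteins. The distance favors genes that vary little, so it ranks genes around 1 member and does not compare members with each other.

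**Figure D3:**
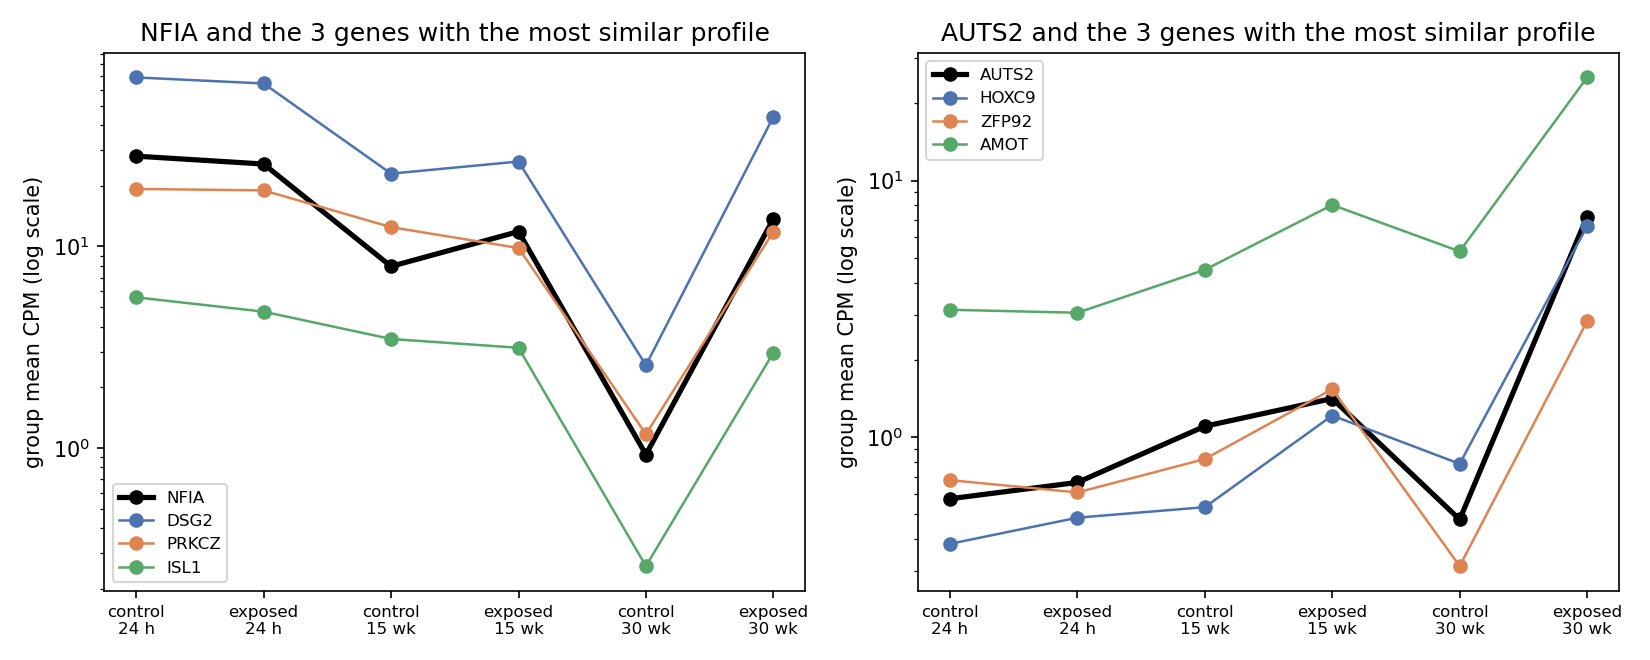
Group mean CPM (log scale) of NFIA and of AUTS2 (black) and of the 3 genes whose profile over 15 samples is most similar to each. DSG2, PRKCZ and ISL1 are lowest in the 30-week controls like NFIA (0.926 CPM), and HOXC9, ZFP92 and AMOT are highest in 30-week exposed cells like AUTS2 (7.23 CPM).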

How the data were processed

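RNA of 15 samples was sequenced as stranded, ribosome-depleted libraries. Read trimming (Rfastp), alignment to GRCh38 and counting on genes (Rsubread) were done by the authors, and the deposited values are raw counts that were not normalized. The strand setting and the handling of reads with several places are not given in the sources used here. Per the labels, bcl2fastq and featureCounts were used with build hg38.

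Counts were analysed in R 4.3.3. Genes were filtered with filterByExpr (16740 of 28395 kept), scaled by TMM and fitted by edgeR 4.0.16 (quasi-likelihood, all 15 samples, 1 mean per condition), with Benjamini-Hochberg adjustment over all genes tested and a threshold of 0.05. The methods of the study use limma-voom with surrogate variables, which was run as an alternative with limma 3.58.1 and sva 3.50.0, as was DESeq2 1.42.0. Standard errors (SE) of edgeR values were derived from the test, as the size of the log2 fold change over the square root of its F statistic. Log2 CPM used a prior count of 2. Where all samples of a group had at most 3 counts of a gene, the group was set to that floor. The folds from it are not confidence limits, as they cover neither the counting error nor the spread between samples. Levels per kb used GENCODE 44 MANE Select transcripts, and isoforms were not counted. Replicates differed by more than sampling noise, their lowest chi-square being 9.28 per gene. The procedure was also run on counts simulated with the dispersions estimated from these data and up to 200 strongly changed genes. That setting does not cover genes of low counts, small effects or replicates that may be technical.

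The members and lists were chosen with earlier results of these data known. Named were all members, all list genes and neighbours that passed, and for each member the 3 genes of at least 1 CPM with the most similar profile, of which 1 item is not reported here. Marker lists held 12 epithelial, 7 mesenchymal, 8 skeletal muscle, 5 neuronal and 5 astrocyte genes. At 30 weeks mesenchymal markers summed to 2150 to 2650 CPM in the controls and 2280 to 2750 CPM in exposed cells, with VIM the largest part, and 4 of the 7 passed the test, FN1, CDH2 and COL1A2 higher and COL1A1 lower in exposed cells. Neuronal markers summed to 78.3 to 90.4 CPM and 130.0 to 144 CPM, nearly all of it TUBB3, which was higher, while SYT1 was lower and STMN2 had at most 3 counts. Astrocyte markers summed to 11.3 to 12.8 CPM and 7.44 to 10.1 CPM, most of it SLC1A3, which was lower, and AQP4 had at most 3 counts.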

Additional observations from a re-analysis of the deposited data

Results flagged for a closer look

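From 15 to 30 weeks AUTS2 moved in opposite directions in the 2 arms: every 30-week control lay below every 15-week control, and every 30-week exposed sample lay above every 15-week exposed sample. The share of all genes placed like this was not counted. The fitted effects of exposure at 30 and 15 weeks differed by 3.57 on the log2 scale (SE 0.459). The difference was not tested, since AUTS2 was chosen on the 30-week samples, and the step from 15 to 30 weeks is also a step between batches. In the 4 exposed samples of 30 weeks no member had a sample far from the others by Dixon's test at 95%, the largest ratio being 0.684 for the lowest sample of AUTS2.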

How the results depend on the processing

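Alternatives were DESeq2, limma-voom with or without 2 surrogate variables, other filters, upper-quartile scaling, 6 small noncoding RNAs left out, each time point or batch 1 alone, a threshold of 0.01, a replicate block, and each sample left out. Calls of members for exposure at 24 h and 15 weeks, and for their difference, numbered 0 under each of these that was run, and each time point alone gives no value of the difference.

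Members called between 15 weeks and 24 h numbered 1 to 2 in the controls (2 with all samples) and 0 to 1 in exposed cells (2 with all samples) when single samples were left out, and 1 in exposed cells with limma-voom or at 0.01. NFIX passed in exposed cells with batch 1 alone (edgeR adjusted p = 0.00598) or 2 surrogate variables (limma adjusted p = 0.0201), and AUTS2 in the controls with 2 surrogate variables (limma adjusted p = 0.0473). Over all genes, 0 calls for exposure at 15 weeks became 17 (DESeq2), 10 (2 surrogate variables), 304 (time point alone) and 29 (batch 1 alone), and 0 for the difference of effects became 4 (batch 1 alone). Between the controls 4174 became 6473 (2 surrogate variables) and 6841 (batch 1 alone), between exposed cells 4349 became 7031 (batch 1 alone), and at 30 weeks 3961 became 2370 (time point alone).

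List genes called numbered 1 at 15 weeks with each time point alone, 13 (batch 1 alone) and 5 (at least 10 counts in every sample) in place of 8 between the controls, and 12 (batch 1 alone) in place of 6 between exposed cells. At 30 weeks they numbered 15 with 2 surrogate variables, 3 with each time point alone, 5 with the replicate block and 4 to 14 with single samples left out, in place of 9. Replicate numbers gave no clear pairing: deviations of samples with the same number had correlations of -0.118 to 0.303, the highest for replicate 2 of 30 weeks. Samples with different numbers reached 0.359, and an effect shared by the replicate 2 samples was not tested. The replicate block moved no count of members.

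Some values that passed no test changed sign. NFIC turned to -0.038 at 15 weeks with 2 surrogate variables, and between exposed cells of 15 weeks and 24 h to 0.11 (2 surrogate variables), 0.0088 (batch 1), 0.0022 (at least 10 counts) and 0.045 (upper quartile). NFIX at 30 weeks turned to 0.019 with 2 surrogate variables. With single samples left out, log2 values at 24 h ran from -0.39 to 0.18 (NFIA), -0.36 to 0.072 (NFIB), -0.60 to 0.37 (NFIC), -0.32 to 0.60 (NFIX) and -0.13 to 0.65 (AUTS2). NFIC ran from -0.25 to 0.61 at 15 weeks, -0.80 to 0.25 between the controls, -0.041 to 0.038 between exposed cells and -0.26 to 0.80 for the difference of effects, where NFIX ran from -0.80 to 0.12 and AUTS2 from -0.29 to 0.49. NFIX at 30 weeks ran from -0.40 to 0.092. The cause was not tested. At 30 weeks NFIA stayed between 3.68 and 4.27, AUTS2 between 3.76 and 4.12 and NFIB between 0.37 and 0.52. The groups of 3 to 4 members did not overlap, beside 27.3% of all genes with all samples, higher and lower together. AUTS2, with 10 to 46 counts in 11 samples, is limited by depth.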
